A study of Mus musculus with 24 samples.

Results

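OL enrichment on day 2 after spinal cord injury (dpi 2) was the difference between mRNA bound to tagged oligodendrocyte (OL) ribosomes and total RNA of the same tissue. It was measured in 6 of the 24 libraries of the series, chosen as those labelled day 2 and either OL RNA, the material precipitated with the tag, or total RNA, the input to that precipitation. All mice were OL-Ribotag mice, in which tamoxifen activates a Cre recombinase driven by the promoter of a myelin gene and the recombined Rpl22 gene then adds an HA tag to the large ribosomal subunit. The labels give female mice of 10 to 12 weeks with a T9 contusion of 50 kdyn. A younger range of ages stands in the study's methods. Each of the 3 dpi 2 pools held the lesion segment of 2 mice and gave 1 OL and 1 total library, so that n = 3 pools stands behind every value. A further 6 libraries, 3 OL and 3 total, came from uninjured (naive) OL-Ribotag females that had also received tamoxifen and were the reference for the change in enrichment. The labels give 10 to 12 weeks for naive mice too, while the paper states an older age at their collection. Naive tissue was collected together with the tissue of dpi 42. Between dpi 2 and naive mice, the injury, the age at collection and the time since tamoxifen therefore cannot be told apart.

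OLs wrap axons of the central nervous system with myelin, a stack of membrane rich in cholesterol and galactolipids that they must synthesize and maintain. A contusion kills OLs and neurons at the epicenter within days, breaks the blood-spinal cord barrier and brings in blood-borne cells, while OL precursor cells (OPCs), astrocytes and microglia react around it. Ribosome tagging draws polysomes from a crushed tissue without dissociating cells, and an mRNA that is more frequent in the precipitate than in the input is called OL enriched. The promoter that drives Cre is also active in Schwann cells of the nerve roots, which therefore can carry the tag. In bulk RNA, fewer cells of a type and less RNA per cell cannot be told apart.

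Counts assigned to genes ranged from 29075211 to 30743509 in the OL libraries and from 25840127 to 27753951 in the total libraries. At that depth 3 counts, the floor used below, correspond to 0.113 to 0.122 CPM (read counts relative to the library total, scaled with TMM factors) in OL and to 0.0840 to 0.0907 CPM in total RNA, for counting error only. Replicate libraries differed by more than sampling noise, with a median chi-square per gene of 7.39 to 21.1 between pairs. Pool 2 carried reads of 4 Y-linked genes, 2414 in its OL and 2604 in its total library, although the labels name females; the other 22 libraries held at most 13. The OL library of pool 3 stood apart by its astrocyte mRNAs: Gfap, the astrocyte intermediate filament, was at 1956, 695 and 5736 CPM in OL pools 1, 2 and 3, against 4297 to 4763 CPM in total RNA. Where leaving out a pool changed a call or moved a printed count or median of dpi 2 enrichment by over 1.5 times, the value without it is given. Rpl22, the tagged gene, was at 166, 189 and 172 CPM in OL and at 143, 172 and 132 CPM in total RNA. Its libraries overlapped and its OL enrichment was 0.24 ± 0.09 (log2 ± SE, q = 0.0397), under the limit for a call.

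A gene was called OL enriched when its log2 fold change of OL over total RNA was over 0.5 with q under 0.05, and OL depleted under -0.5, with q from edgeR's quasi-likelihood test after Benjamini-Hochberg adjustment. By this rule 3525 of 17167 genes (20.5%) were OL enriched on dpi 2 and 4670 (27.2%) were OL depleted. The depleted side held more of the large differences: 2869 genes (16.7%) were highly depleted, with a log2 fold change under -2, and 380 (2.21%) were highly enriched, over 2. With library sizes alone these counts were 3853 and 105, and with an offset for length and GC content 2094 and 1037. In 4324 genes (25.2%) all 3 OL libraries lay above all 3 total libraries, and in 5511 (32.1%) they lay below. The median of all genes was -0.19, which moved to -0.76 with library sizes alone and to 0.33 with an offset for length and GC content. Without pool 1 the median of all genes was -0.12. Values below are not shifted by that median and are to be read against it. Counts of called list members are likewise to be read against 20.5% enriched and 27.2% depleted among all genes. The share of calls that were enriched was 43.0%, against 15.7% and 68.0% under those 2 scalings. Without pool 2, 3302 genes were OL enriched and 3926 depleted, and without pool 3 the counts were 3298 and 4788.

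Some transcripts of the injured cord were not seen on OL ribosomes. Of 12186 genes with at least 100 counts in each total library, 13 had no count in any OL library. Abcc9, a pericyte channel subunit, was at 7.92, 7.60 and 11.4 CPM in total RNA, which makes it at least 77.0-fold lower in OL against a floor of 3 counts per library. Gjd2, the neuronal connexin, was at least 68.1-fold lower and Gabrb2, a GABA-A receptor subunit, at least 47.2-fold lower. The others were Clec4n, a myeloid lectin (at least 64.8-fold), Hapln1 of the perineuronal net (56.8-fold), Lin7a (48.2-fold), Htr1b, a serotonin receptor (46.5-fold), Slc22a8, an organic anion transporter of vessels and choroid plexus (46.4-fold), each as a lower bound. Grm8, a glutamate receptor (at least 40.5-fold), Gpr165 (36.1-fold) and Pcdh18 (35.6-fold) complete the 13 and were named after their values were seen. Pcdhac2 (72.0-fold) and Ugt1a7c (53.0-fold) share exons with the other members of their clusters, so that their counts are uncertain. Of the 15 genes lowest by the naming rule, the other 5 were St8sia4, Gpr183, Rasgrp1, Gpr149 and Ptprr, at 0 to 0.203 CPM in OL and at 2.93 to 12.0 CPM in total RNA. In the reverse direction, none of 9896 genes with at least 100 counts in each OL library was without counts in every total library.

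By exon length in 5 equal groups of genes, the median log2 fold change differed little, from -0.22 in the shortest group to -0.17 in the middle one and -0.20 in the longest. The share of genes called differed more: OL depleted genes were 19.2% of the shortest group and 33.4% of the longest. The share of OL enriched genes was 15.97% in the shortest of 5 equal groups and lay between 20.1% and 22.9% in the others. Highly enriched genes had a median exon length of 3786 bases and a GC content of 52.8%, beside 4124 bases and 50.0% over all genes with a length.

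**Figure D1:**
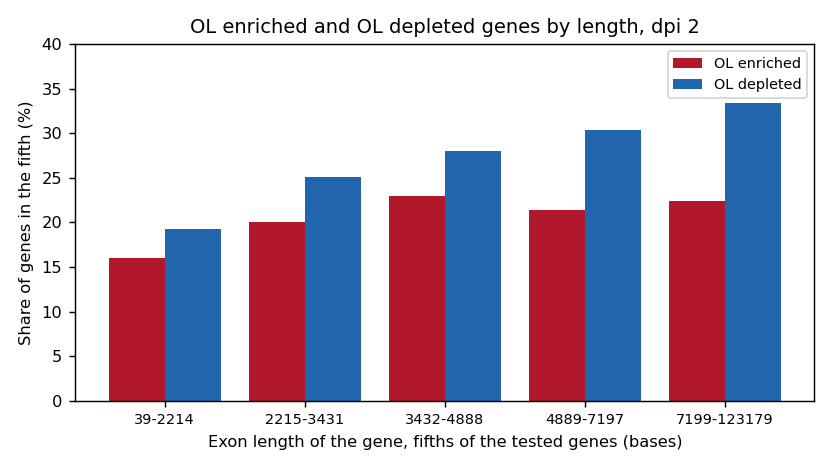
Share of genes called OL enriched (red) and OL depleted (blue) on dpi 2, in percent on the vertical axis, in 5 equal groups of tested genes by exon length in bases. OL depleted genes make up 19.2% of the shortest and 33.4% of the longest group, and OL enriched genes 15.97% and 22.4%.

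The myelin program set the positive end of the scale. All 23 genes of compact myelin and the OL surface were OL enriched, with a median of 2.49 beside -0.19 for all genes, and the 3 pools gave medians of 2.58, 2.48 and 2.47. Together these genes took 115854 to 145012 CPM in the OL libraries and 23364 to 25080 CPM in total RNA, without overlap. Mag, an adhesion molecule of the membrane next to the axon, was at 9019, 9195 and 8155 CPM in OL and at 1005, 913 and 948 CPM in total RNA. All OL values lay above all total values, a log2 fold change of 3.20 ± 0.13 (q = 1.39e-13). Mbp, which compacts the membrane from its cytoplasmic side, was at 47724, 56568 and 45045 CPM against 9232, 10242 and 9843 CPM (2.35 ± 0.13, q = 6.74e-12). Claudin 11 (Cldn11), which forms the tight junctions of myelin, reached 3.02 ± 0.18. The lowest member was Cd9, a tetraspanin that many other cells also make, at 0.82. Counted per kilobase of exon, the OL level of Apod was 18785 CPM per kilobase, above Mbp at 5878 and Cldn11 at 5194. The length was that of all annotated exons of a gene merged, not of 1 transcript, so that this order depends on the annotation. Without the division the OL values of Apod and Mbp overlapped.

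The 14 markers of mature OL subtypes were all enriched (median 2.45). Apod, a secreted lipid carrier, was at 37396, 60547 and 47283 CPM in OL and at 4305, 6502 and 5216 CPM in total RNA (3.18 ± 0.16, q = 2.76e-12). Klk6, a secreted serine protease of mature OLs, stood at 4345, 5099 and 3740 CPM against 431, 445 and 386 CPM (3.38 ± 0.27, q = 8.86e-10). In both genes every OL pool lay above every total pool. Il33, a nuclear alarmin stored in white matter OLs, was enriched by 2.09 ± 0.17 and Hopx, a homeodomain protein, by 2.27 ± 0.15.

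Among 11 transcription factors of the lineage, 10 were OL enriched and the median was 2.16. Myrf, which switches on myelin genes, was at 1410, 1324 and 1030 CPM in OL against 202 to 242 CPM in total RNA (2.50 ± 0.13). Nkx6-2 had the highest value, 3.06 ± 0.16, and Sox10, required throughout the lineage, had 2.16 ± 0.14. Olig1 and Olig2, shared by OLs and OPCs, were lower at 1.07 ± 0.12 and 1.02 ± 0.17, where naive values were 2.07 and 2.12. Olig2 stood at 175, 147 and 194 CPM in OL and at 80.6, 68.1 and 105 CPM in total RNA, still without overlap. Tcf7l2, which marks OLs at the onset of myelination, was the exception at 8.84, 7.58 and 12.3 CPM in OL and 10.0, 12.0 and 10.3 CPM in total RNA. Its libraries overlapped (-0.17 ± 0.25, q = 0.592), and the naive value was 1.41.

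**Figure D2:**
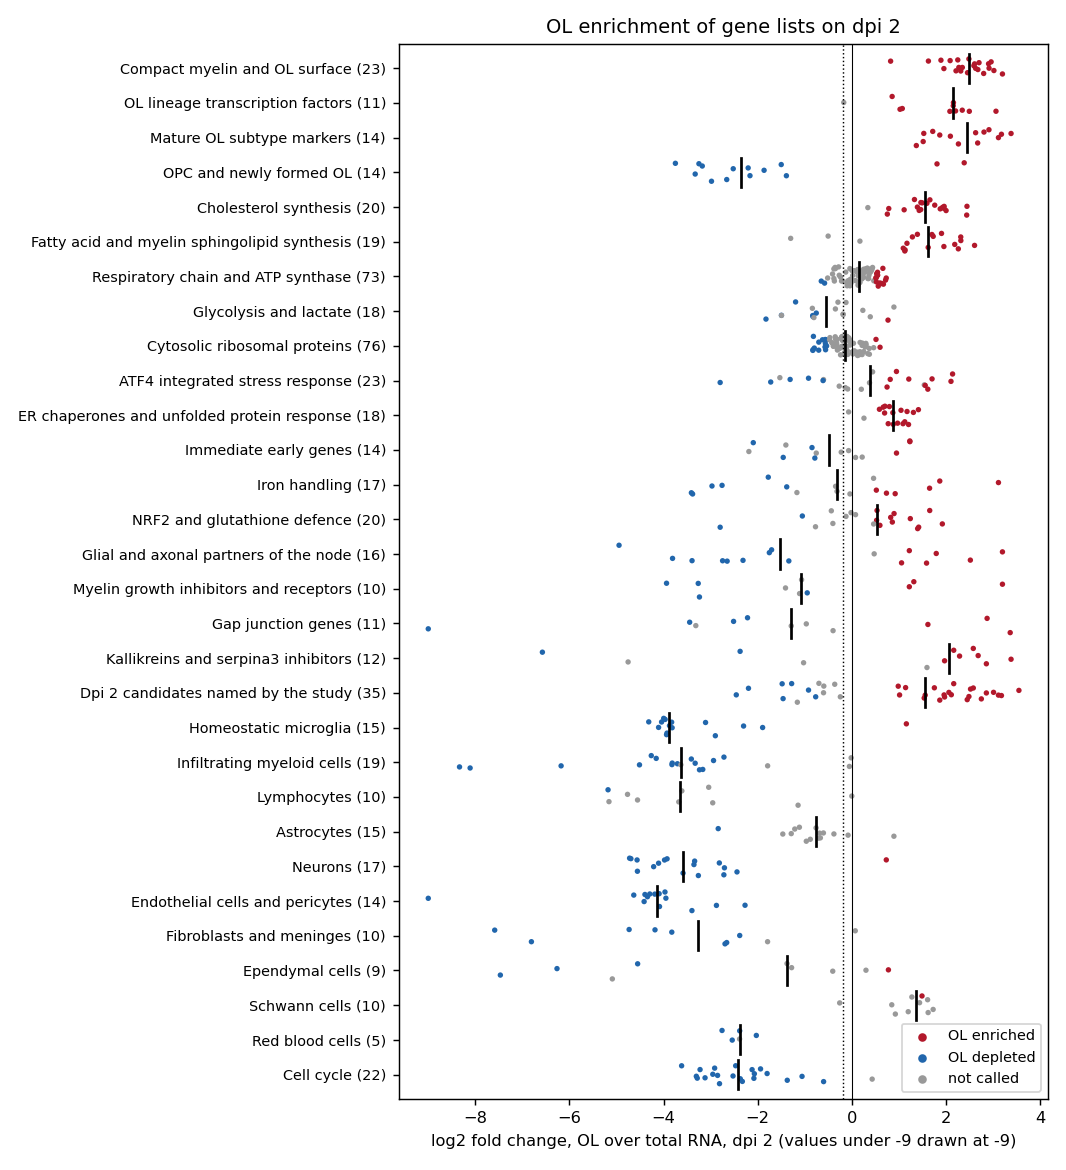
Log2 fold change of OL over total RNA on dpi 2 (horizontal axis) for the tested members of 30 gene lists, with the number tested in brackets. Each point is 1 gene, colored by its call, the black bar is the list median and the dotted line the median of all genes at -0.19; the 23 myelin genes lie from 0.82 to 3.20 and values under -9 are drawn at -9.

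OPC genes lay on the other side of the scale. Of 14 OPC and newly formed OL genes, 12 were OL depleted and 2 were enriched, and the median was -2.36. Without pool 3 the median was -2.98, with the same counts. Pdgfra, the growth factor receptor that defines OPCs, was at 8.92, 4.82 and 14.1 CPM in OL and at 92.4, 93.9 and 93.5 CPM in total RNA (-3.33 ± 0.37, q = 1.77e-07). Gpr17, a receptor of committed precursors, was at 6.16, 3.12 and 9.87 CPM against 69.6, 42.6 and 70.1 CPM (-3.25 ± 0.36, q = 1.37e-07). For both, the highest OL library was that of pool 3 and no libraries overlapped. Cspg4 (NG2) had a value of -2.52 ± 0.32, and Bmp4, secreted by newly formed OLs, had a value of -3.75 ± 0.61. On the enriched side were Enpp6, a choline phosphodiesterase of newly differentiated OLs (301, 248 and 218 CPM against 54.0, 44.8 and 47.7 CPM, 2.39 ± 0.17), and Bcas1, found in early and mature myelin (1.81 ± 0.11). None of the 14 differed from naive by the limit used for that comparison, a difference over 1 with q under 0.05. Over all genes 3.35% were higher and 2.92% lower by this limit, so that none in so short a list says little.

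Enzymes that make myelin lipids formed the next group. In the cholesterol pathway 19 of 20 genes were OL enriched, with a median of 1.55 and pool medians from 1.48 to 1.62. Hmgcs1, which makes HMG-CoA at the entry of the pathway, was at 1895, 2334 and 1356 CPM in OL and at 353, 377 and 299 CPM in total RNA (2.44 ± 0.19, q = 7.34e-10). Fdps, which makes farnesyl diphosphate, was at 105, 118 and 101 CPM against 19.8, 18.4 and 21.1 CPM (2.45 ± 0.22, q = 5.98e-09). The OL libraries of both stood clear of the total libraries. Cyp51, the lanosterol demethylase, was enriched by 1.93 ± 0.13 and Lss, the lanosterol synthase, by 1.88 ± 0.14. The exception was Tm7sf2, a sterol reductase, at 16.9, 12.6 and 13.5 CPM against 9.94, 11.01 and 12.9 CPM with overlapping libraries (0.34 ± 0.29, q = 0.329).

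Promoters of 3 of these enzymes are shown because the OL level of each gene was above total RNA in every pool. Each runs from 250 bases before to 50 bases after the start of the gene (RefSeq, GRCm38.p6), 5′ to 3′ on the strand of the gene: Hmgcs1 at chr13:119690101-119690400 on the plus strand, Cyp51 at chr5:4104648-4104947 on the minus strand and Lss at chr10:76531355-76531654 on the plus strand. Capitals mark CCAAT, the letters of the CCAAT box, or ATTGG, the same letters on the other strand. Of the 20 listed genes 15 had a promoter in the table and 13 of those held the letters on either strand, as did 37.9% of all 27025 promoters of this length. A match is a description of letters and not a site.
Hmgcs1: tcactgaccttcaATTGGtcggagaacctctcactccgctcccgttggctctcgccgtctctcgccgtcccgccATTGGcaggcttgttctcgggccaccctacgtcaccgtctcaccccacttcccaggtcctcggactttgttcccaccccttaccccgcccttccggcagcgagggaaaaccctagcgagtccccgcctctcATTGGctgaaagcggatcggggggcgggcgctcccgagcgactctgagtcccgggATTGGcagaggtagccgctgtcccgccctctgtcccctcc
Cyp51: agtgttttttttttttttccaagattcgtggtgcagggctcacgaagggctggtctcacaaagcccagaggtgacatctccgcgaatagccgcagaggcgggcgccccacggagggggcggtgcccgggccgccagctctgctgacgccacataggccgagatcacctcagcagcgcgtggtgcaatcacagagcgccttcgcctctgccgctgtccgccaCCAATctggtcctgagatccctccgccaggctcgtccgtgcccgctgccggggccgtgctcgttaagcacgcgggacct
Lss: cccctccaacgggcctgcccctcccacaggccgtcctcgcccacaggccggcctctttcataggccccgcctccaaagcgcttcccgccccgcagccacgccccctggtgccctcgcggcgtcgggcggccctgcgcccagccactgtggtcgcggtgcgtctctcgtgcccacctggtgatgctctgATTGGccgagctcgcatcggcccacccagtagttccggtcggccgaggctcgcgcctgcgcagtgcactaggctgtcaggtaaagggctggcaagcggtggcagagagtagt

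Of 19 genes for fatty acid and myelin sphingolipid synthesis, 16 were OL enriched (median 1.62). Fatty acid supply was represented by Acaca, acetyl-CoA carboxylase (226, 302 and 165 CPM in OL against 58.1, 47.7 and 46.3 CPM, 2.19 ± 0.16), and by Fasn, fatty acid synthase (1.39 ± 0.12). Fa2h and Ugt8a, which hydroxylate and galactosylate the ceramide of myelin, had values of 2.61 and 1.96. Elovl1 and Cers2, which make very long chain ceramides, were enriched by 1.73 ± 0.12 and 1.29 ± 0.12 on dpi 2 and by 2.75 and 2.42 in naive cord. The 3 remaining genes were not called. Acly, which supplies cytosolic acetyl-CoA, was at 294, 306 and 263 CPM in OL and at 264, 233 and 267 CPM in total RNA (0.17 ± 0.13, q = 0.272), and the desaturases Fads1 (-0.50 ± 0.37, q = 0.256) and Fads2 were on the depleted side. Fads2 had a value of -1.30 without a call, and with the tissue pool as a block it was OL depleted at -1.39. Without the OL library of pool 3 both desaturases were OL depleted, at -0.95 and -1.83.

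Genes of the axon-glia contact lay on both ends of the scale. Of 16 genes at the node and its flanks, 6 were OL enriched and 9 depleted. On the glial side, Nfasc, whose glial form anchors the paranodal loops, was at 2075, 1888 and 1595 CPM in OL against 563, 502 and 537 CPM (1.79 ± 0.10, q = 9.38e-12), and Cntn2, the juxtaparanodal adhesion molecule, was at 1675, 1522 and 1275 CPM against 286, 219 and 274 CPM (2.52 ± 0.14, q = 9.75e-12). On the axonal side, Cntnap1, the paranodal partner, was at 6.84, 6.72 and 18.7 CPM in OL and at 121, 99.5 and 119 CPM in total RNA (-3.39 ± 0.27, q = 8.70e-10). None of these libraries overlapped. Cntnap2 of the juxtaparanode was lower still at -4.95 ± 0.30, Cadm3 of the internode at -2.75 ± 0.13 and Scn1a, a sodium channel, at -3.81 ± 0.24. Ank3, the scaffold ankyrin G that neurons use at the node, was on the enriched side at 1.06 ± 0.13, with 393, 392 and 364 CPM in OL and 201, 172 and 179 CPM in total RNA.

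Myelin inhibitors of axon growth and their receptors also differed. The 3 ligands were OL enriched: Mag as above, Rtn4 (Nogo) with 2081, 1776 and 1913 CPM against 823, 719 and 772 CPM (1.32 ± 0.13, q = 3.90e-08), and Omg, OL myelin glycoprotein, with 188, 129 and 224 CPM against 81.5, 67.7 and 82.7 CPM (1.22 ± 0.16, q = 1.70e-06). Of 7 receptors and coreceptors none was enriched and 4 were depleted. Lingo1 was at 5.71, 1.22 and 4.59 CPM in OL and at 41.9, 25.3 and 41.8 CPM in total RNA (-3.24 ± 0.45, q = 3.63e-06), below in all pools. Among 11 gap junction genes, 3 were enriched, among them the OL connexins Gjb1 (2.88 ± 0.14) and Gjc3 (1.62 ± 0.12), and 4 genes of neurons and vessels were depleted. The astrocyte connexin Gja1 was at 48.4, 16.3 and 156 CPM in OL against 175 to 185 CPM and was not called (-1.29 ± 0.76, q = 0.16), its highest OL value being that of pool 3. Without that library it was OL depleted at -2.51, and without pool 3 the list median was -2.03 in place of -1.29. Without pool 2 the list median was -0.83.

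Energy genes stayed close to the middle of the distribution. Of 73 genes of the respiratory chain and ATP synthase 14 were OL enriched and 2 were depleted, with a median of 0.16, where the naive median was -0.65. Over all genes the shares were 20.5% enriched, close to that of this list, and 27.2% depleted. Atp5h, an ATP synthase subunit, was at 205, 227 and 194 CPM in OL and at 116, 135 and 126 CPM in total RNA (0.73 ± 0.14, q = 0.000166), and Sdhc of complex II had 0.72 ± 0.12. Ndufb2 of complex I went the other way, at 23.9, 21.6 and 29.6 CPM against 38.9, 35.6 and 37.7 CPM (-0.58 ± 0.17, q = 0.00788), a call lost without pool 1 or pool 2 (-0.52 each) and a sign turned by the length and GC offset (0.10). The sign of this list depended on scaling: with library sizes alone the median was -0.41 with 27 depleted and no enriched genes, and with the length and GC offset 58 were enriched. Without pool 3 the list had 8 depleted genes and a median of 0.06. Without pool 2 it had 9 enriched and none depleted, and without pool 1 it had 1 depleted. Glycolysis and lactate transport had 1 enriched and 6 depleted genes of 18 (median -0.55, or 0.03 with the length and GC offset). Without pool 3, 9 were depleted, and without pool 2, 2 were enriched and the list median was -0.32. With the tissue pool as a block 2 were enriched and 7 depleted. Slc16a1 (MCT1), through which OLs pass lactate to axons, was OL enriched at 165, 135 and 190 CPM in OL and 79.3, 104 and 104 CPM in total RNA (0.77 ± 0.14, q = 7.59e-05). Its naive enrichment was 1.93. Slc16a3 (MCT4), the exporter of glycolytic cells, was at 7.22, 11.1 and 4.09 CPM against 27.0, 27.7 and 24.5 CPM (-1.82 ± 0.42, q = 0.001), and Hk2 (-1.50 ± 0.33) and Pkm (-1.19 ± 0.24) were depleted as well.

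Of 76 cytosolic ribosomal protein genes 2 were enriched and 13 depleted, with a median of -0.15 that was also set by scaling (-0.72 with library sizes alone and 0.47 with the length and GC offset). Without pool 2, 3 were enriched and 8 depleted (median -0.03), and without pool 3, 1 was enriched and 24 depleted (median -0.31). Rps27 was at 82.0, 83.0 and 102 CPM in OL and at 140, 178 and 152 CPM in total RNA (-0.82 ± 0.11, q = 2.87e-06), without overlap, while Rpl3 was at 279, 314 and 308 CPM against 296, 345 and 325 CPM with overlap (-0.10 ± 0.07, q = 0.245).

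Stress pathways differed from one another. The unfolded protein response was the most uniform: 16 of 18 ER chaperones and regulators were OL enriched and none was depleted, with a median of 0.88. Hspa5 (BiP), the main ER chaperone, was at 1272, 1009 and 1053 CPM in OL and at 632, 550 and 516 CPM in total RNA (0.97 ± 0.22, q = 0.000975), Canx (calnexin) at 1002, 904 and 952 CPM against 526, 514 and 512 CPM (0.88 ± 0.08, q = 3.73e-09) and Creld2 at 1.31 ± 0.16. The OL libraries of these genes lay above the total libraries. Dnajb9 (-0.07) and Xbp1 (0.26) were not called. In naive cord 14 of the 18 were OL enriched, and none differed between dpi 2 and naive by the limit. Few of all genes passed that limit either, 3.35% higher and 2.92% lower. With library sizes alone 6 were OL enriched on dpi 2 and 1 was depleted, with a median of 0.31.

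In the integrated stress response, run by the transcription factor ATF4, 9 of 23 genes were OL enriched and 5 depleted (median 0.38, or -0.19 with library sizes alone). Atf4 itself was at 288, 293 and 193 CPM in OL and at 160, 161 and 139 CPM in total RNA (0.75 ± 0.13, q = 4.30e-05). The serine synthesis enzymes were the highest: Phgdh stood at 235, 236 and 199 CPM against 54.0, 47.5 and 50.5 CPM (2.14 ± 0.10, q = 4.96e-13), Psat1 at 2.11 ± 0.11 and Psph at 1.62 ± 0.16. All 3 were OL enriched in naive cord too, Phgdh by 2.76. Pycr1, a proline synthesis enzyme, was at 11.3, 7.13 and 4.55 CPM in OL and at 2.603, 1.62 and 3.57 CPM in total RNA (1.56 ± 0.57, q = 0.0261), where its naive value was -1.84. It was not called without pool 1 (1.17) or pool 2 (1.36), nor in the dpi 2 libraries alone with the tissue pool as a block (1.55). On the depleted side, Asns, asparagine synthetase, was at 23.96, 18.4 and 24.4 CPM against 63.3, 52.5 and 50.0 CPM (-1.31 ± 0.22, q = 4.29e-05), Atf3 was at -1.72 ± 0.31 and Slc7a11, the cystine transporter, was at -2.80 ± 0.43. In naive cord Asns stood at -3.83.

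The promoters of Asns (chr6:7693160-7693459) and Pycr1 (chr11:120643699-120643998), both on the minus strand of GRCm38.p6 and from RefSeq, are shown as list members that went opposite ways. Capitals mark TGATGNAA, a spelling of the composite site bound by ATF4 with a C/EBP partner, searched on both strands. These letters were in 7 of 22 list promoters (of 24 listed genes) and in 4.06% of all 27025.
Asns: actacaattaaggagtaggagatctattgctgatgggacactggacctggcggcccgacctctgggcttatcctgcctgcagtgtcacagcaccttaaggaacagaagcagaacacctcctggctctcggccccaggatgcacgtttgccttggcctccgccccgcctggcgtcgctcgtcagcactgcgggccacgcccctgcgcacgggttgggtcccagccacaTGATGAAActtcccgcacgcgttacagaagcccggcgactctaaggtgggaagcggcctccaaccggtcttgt
Pycr1: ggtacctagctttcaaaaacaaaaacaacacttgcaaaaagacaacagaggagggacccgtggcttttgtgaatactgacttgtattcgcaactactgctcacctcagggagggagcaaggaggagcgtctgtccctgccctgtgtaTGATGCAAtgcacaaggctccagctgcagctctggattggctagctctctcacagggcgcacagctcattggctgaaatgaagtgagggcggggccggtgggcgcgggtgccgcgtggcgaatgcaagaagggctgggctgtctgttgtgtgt

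Immediate early genes, which report recent signaling, had 3 enriched and 4 depleted members of 14 (median -0.49, or 0.22 with the length and GC offset). These counts were close to the shares over all genes, 20.5% enriched and 27.2% depleted. Fos was at 101, 103 and 92.1 CPM in OL and at 47.2, 40.7 and 38.03 CPM in total RNA (1.23 ± 0.23, q = 9.80e-05), all OL above all total, where naive Fos was OL depleted (-1.93). Nr4a1 had 1.23 ± 0.20 and Jund 0.95 ± 0.15. Egr1 was at 11.8, 12.6 and 21.3 CPM against 71.2, 54.5 and 69.2 CPM (-2.09 ± 0.29, q = 3.08e-06), and Jun was not called (0.22 ± 0.18, q = 0.305; naive 1.59). Without pool 1 the list had 2 depleted genes.

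Iron genes, of interest because OLs hold much of the iron of the cord and hemorrhage brings more, gave 6 enriched and 6 depleted genes of 17 (median -0.31, or 0.32 with the length and GC offset). Trf, transferrin, was at 5510, 5982 and 4969 CPM in OL and at 643, 658 and 597 CPM in total RNA (3.12 ± 0.13, q = 1.86e-13). Steap3, an endosomal ferrireductase, stood at 185, 163 and 94.1 CPM against 42.8, 48.1 and 30.1 CPM (1.87 ± 0.44, q = 0.00106), and Tfrc, the transferrin receptor, had 0.92 ± 0.15. On the depleted side were genes of heme breakdown, ferritin light chain and iron export. Hmox1, heme oxygenase 1, was at 161, 116 and 206 CPM in OL and at 595, 631 and 425 CPM in total RNA (-1.77 ± 0.24, q = 2.37e-06), Ftl1, ferritin light chain, at 429, 496 and 392 CPM against 1156, 1315 and 964 CPM (-1.38 ± 0.15, q = 8.81e-08) and Slc40a1, the exporter ferroportin, at 0.983, 1.17 and 0.727 CPM against 10.9, 8.35 and 10.9 CPM (-3.38 ± 0.32, q = 1.47e-08). Ferritin heavy chain, Fth1, was at 8899, 11376 and 7709 CPM against 10155, 13194 and 11428 CPM and overlapped (-0.31 ± 0.18, q = 0.137), and without the OL library of pool 2 it was OL depleted at -0.53. Without pool 3, 7 of the 17 were enriched and 8 depleted.

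Of 20 genes of NRF2 and glutathione defense 11 were enriched and 2 depleted (median 0.53, or -0.04 with library sizes alone). Gss, glutathione synthetase, was at 97.6, 87.9 and 69.1 CPM in OL and at 27.6, 28.8 and 24.3 CPM in total RNA (1.66 ± 0.16), Cat, catalase, at 1.42 ± 0.09, Prdx1, a peroxiredoxin, at 1.40 ± 0.11 and Gpx4, which reduces lipid peroxides, at 0.86 ± 0.11. Gstp1 had 1.92 ± 0.11, with reads that near-identical copies may share. Srxn1, sulfiredoxin, was depleted with Slc7a11, at 146, 129 and 150 CPM against 309, 282 and 289 CPM (-1.05 ± 0.10, q = 2.40e-08). Without pool 3, 4 of the 20 were depleted.

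Among secreted proteases and inhibitors, some genes were high in OL after injury. Of 12 kallikrein and serpina3 genes tested, 7 were OL enriched and 2 depleted, with a median of 2.07 against 0.04 in naive cord. The median of the single-gene differences from naive was smaller, 0.41. By the limit for that comparison 3 of the 12 were higher and none was lower, beside 3.35% higher among all genes. These 3, Klk8, Serpina3n and Serpina3c, are candidates that the study chose partly by this same difference in these libraries. Their count is therefore not independent evidence. Of the 12 genes, 4, 3 and 4 were OL enriched without pools 1, 2 and 3, and 0, 0 and 1 were depleted. With the tissue pool as a block none was depleted. Serpina3n, an inhibitor secreted by reactive glia, was at 7634, 7457 and 7615 CPM in OL and at 1875, 2183 and 1731 CPM in total RNA (1.97 ± 0.19, q = 1.99e-08), against a naive OL mean of 59.5 ± 23.3 CPM (SD, n = 3). Klk8, neuropsin, was at 316, 352 and 291 CPM against 42.1, 46.5 and 43.4 CPM (2.86 ± 0.35, q = 5.84e-07), and naive OL held 0.464 ± 0.414 CPM. Serpina3c was at 20.4, 32.5 and 6.66 CPM in OL against 4.06, 4.397 and 1.48 CPM (2.58 ± 0.74, q = 0.00566), and was not called without pool 2 (2.29). Klk9 (2.17 ± 0.78) and Serpina3i (2.29 ± 0.87) lost their call without any 1 of the 3 pools, at 2.03 to 2.30 and 2.03 to 2.54. Serpina3 genes are near copies that can share reads, so that values of single members are uncertain.

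A list of 35 candidates for the early response had been chosen on these same libraries, so that its direction is not independent evidence. Of the 35, 22 were OL enriched on dpi 2 and 7 were depleted, and the median was 1.56 against -1.24 in naive cord. Receptors and ligands included Fgfr4, an FGF receptor (22.9, 32.8 and 23.7 CPM in OL against 3.39, 5.32 and 1.12 CPM, 3.01 ± 0.62), Fgfbp3, an FGF carrier (2.45 ± 0.24), Spry1, an inhibitor of the same receptors (98.5, 116 and 74.6 CPM against 23.99, 22.1 and 20.6 CPM, 2.12 ± 0.17), and Cacng5, an AMPA receptor subunit (76.7, 47.8 and 49.2 CPM against 33.5, 20.3 and 24.8 CPM, 1.14 ± 0.28). Pfkfb4, a regulator of glycolysis, was enriched by 0.99 ± 0.20 and Parvb, an integrin-linked adaptor, by 1.02 ± 0.18. Ptpn5, a phosphatase of neurons, was at 14.4, 16.1 and 19.2 CPM in OL and at 77.3, 67.1 and 82.9 CPM in total RNA (-2.20 ± 0.21), still OL depleted on dpi 2.

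**Figure D3:**
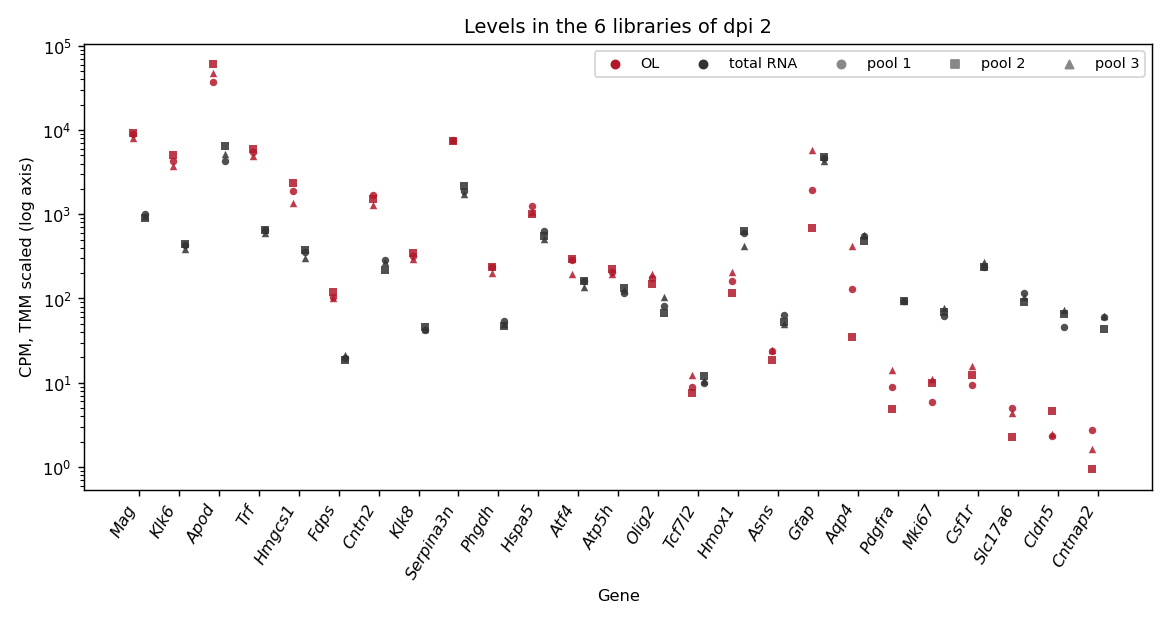
Levels of 25 genes in CPM (TMM scaled, log axis) in the 6 libraries of dpi 2; red is OL, black is total RNA and the symbol gives the pool. Mag lies at 8155 to 9195 CPM in OL above 913 to 1005 CPM in total RNA, and the order turns for Hmox1, Asns, Pdgfra and the genes to the right of Pdgfra. The OL values of Gfap (695 to 5736 CPM) and Aqp4 are spread around or below total RNA.

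Messages of other cells marked the negative end. Among 15 genes of homeostatic microglia 14 were OL depleted (median -3.87): Csf1r, the receptor on which microglia depend, was at 9.30, 12.5 and 15.7 CPM in OL and at 240, 239 and 268 CPM in total RNA (-4.31 ± 0.26, q = 2.05e-11). The exception was Sall1, a transcription factor of microglia, at 154, 119 and 110 CPM against 56.9, 52.3 and 62.5 CPM (1.16 ± 0.17, q = 7.82e-06), which was OL enriched in naive cord as well (1.90). Of 19 genes of infiltrating myeloid cells 15 were depleted and none enriched (median -3.63). Lyz2, lysozyme, was at 28.2, 40.1 and 28.3 CPM against 615, 683 and 425 CPM (-4.16 ± 0.25, q = 2.55e-11), and Arg1 was at 6.58, 14.7 and 10.98 CPM against 106, 146 and 91.0 CPM (-3.41 ± 0.60, q = 8.30e-05). Lgals3 (galectin 3) and Cd44, which reactive glia also make, did not pass: Lgals3 was at 178, 131 and 185 CPM in OL and 188, 192 and 119 CPM in total RNA.

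Messages of neurons, vessels and fibroblasts were low in OL RNA as well. Of 17 neuronal genes 16 were OL depleted (median -3.59); Slc17a6, the vesicular glutamate transporter VGLUT2, was at 5.03, 2.27 and 4.399 CPM in OL and at 115, 90.3 and 104 CPM in total RNA (-4.72 ± 0.26, q = 5.65e-12). Tubb3, a tubulin used as a neuronal marker, was on the enriched side at 873, 1090 and 521 CPM against 475, 533 and 486 CPM (0.73 ± 0.19, q = 0.00309), with the OL library of pool 3 within the range of total RNA. Without the OL library of pool 2 it was not called (0.44), and its naive value was -0.73. All 14 endothelial and pericyte genes were depleted (median -4.14), Cldn5, the endothelial claudin, at 2.34, 4.66 and 2.45 CPM against 45.5, 66.2 and 73.5 CPM (-4.29 ± 0.52, q = 5.48e-07). Of 10 fibroblast and meningeal genes 8 were depleted, Dcn (decorin) at 7.03, 7.70 and 5.74 CPM against 189, 244 and 110 CPM (-4.73 ± 0.48, q = 4.38e-08). Their median was -3.26, and -3.96 without pool 3.

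Astrocyte genes did not separate cleanly. Of 15 genes 1, Hgf, was called, as OL depleted, a call lost without any 1 pool (-3.26 to -2.36), and the list median was -0.76. The summed level of the list was 3119 to 11609 CPM in OL and 8617 to 8950 CPM in total RNA, with none of Gfap, Aqp4 or Aldh1l1 at 0 in any OL library. Naive OL libraries spread as far, from 2466 to 14088 CPM. Aqp4, the water channel of astrocyte endfeet, was at 130, 35.2 and 420 CPM in OL and at 556, 488 and 573 CPM in total RNA (-1.47 ± 0.74, q = 0.101). Without the OL library of pool 3, 12 of the 15 were OL depleted, Aqp4 at -2.75 and Gfap at -1.82, and the median was -2.11, and without pool 3 altogether 8 were depleted (-2.03). Without pool 2 none was depleted and the median was -0.40. With the tissue pool as a block 5 were depleted and 1 was enriched. The part of astrocyte RNA in other results of pool 3 was not tested. Schwann cell genes leaned the other way: the median of 10 genes was 1.36 and 1, Pmp22, was called enriched (800, 856 and 658 CPM against 234, 376 and 212 CPM, 1.49 ± 0.20), which OLs also express. With the tissue pool as a block 7 of the 10 were OL enriched.

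Cell cycle genes were mostly lower in OL than in total RNA on dpi 2. Of 22 cell cycle genes 21 were OL depleted (median -2.42, naive -0.91). The list summed to 185 to 236 CPM in OL and 530 to 591 CPM in total RNA. In naive cord it summed to 131 to 167 CPM in OL and 55.7 to 61.4 CPM in total RNA, so that the level rose in both. Mki67 was at 5.90, 9.88 and 11.1 CPM in OL and at 62.1, 69.3 and 76.9 CPM in total RNA (-2.95 ± 0.37, q = 8.44e-07). Pcna, the replication clamp, was the one gene above 0, at 96.1, 92.1 and 74.6 CPM against 66.3, 67.3 and 61.0 CPM (0.43 ± 0.11, q = 0.00256), under the limit of 0.5. Mcm2, of the replicative helicase, was at 20.9, 19.6 and 22.3 CPM against 31.9, 29.3 and 33.9 CPM (-0.60 ± 0.20, q = 0.0139), a call lost without pool 1 (-0.59) or pool 2 (-0.61), and in naive cord it was OL enriched by 1.98.

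Among the 15 genes with the highest enrichment were Klk6, Mag, Apod and Trf, described above, and the following 10. Mfsd4b1, a solute carrier (chr10:40001575-40025268, GRCm38), led with 17.95, 15.1 and 11.1 CPM in OL and 2.07, 1.14 and 0.514 CPM in total RNA (3.56 ± 0.49, q = 2.98e-06). Il17b, a cytokine, was at 10.7, 16.5 and 2.601 CPM against 1.57, 0.957 and 0 CPM (3.55 ± 1.03, q = 0.00643), and was not called without pool 2 (3.08). Less variable were Stmn4, a microtubule regulator (1685, 1849 and 1266 CPM against 181, 182 and 164 CPM, 3.19 ± 0.14), Gsn, gelsolin, which severs actin (4061, 4222 and 3926 CPM against 508, 465 and 440 CPM, 3.11 ± 0.14), Gpr62, an orphan receptor (3.09 ± 0.13), Tmprss5, a membrane protease (3.26 ± 0.18), and Insc, a spindle orientation adaptor (3.10 ± 0.21). Smtnl2 (3.45 ± 0.30), Barx2, a homeobox gene (3.42 ± 0.45), and Smim5 (3.15 ± 0.61) completed the set. For each of these genes all OL libraries lay above all total libraries, as the rule for naming them required.

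OL enrichment was then compared between dpi 2 and naive cord, by the interaction of fraction and group. By a difference over 1 with q under 0.05, enrichment was higher on dpi 2 in 575 of 17167 genes (3.35%) and lower in 501 (2.92%). The median difference was 0.06. The balance depended on scaling: with a dpi 2 total library as the TMM reference 343 were higher and 739 lower, a share of 31.7% higher instead of 53.4%. It also depended on single OL libraries: without each of the 3 dpi 2 and the 3 naive OL libraries in turn, 266 to 545 genes were higher and 695 to 923 lower. Without dpi 2 pool 3 as a whole, 276 were higher and 818 lower. Of 3733 genes OL enriched in naive cord (21.7%), 2710 were also enriched on dpi 2 and 70 were depleted; of 4909 depleted in naive cord (28.6%), 3481 were also depleted and 39 were enriched. The myelin list had no gene past the limit, and medians of its members were 2.49 and 2.61.

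Of the 10 genes named for a higher OL enrichment on dpi 2, Fxyd7, a regulator of the sodium pump, was at 63.0, 69.0 and 45.1 CPM in OL on dpi 2 and at 6.16 ± 0.272 CPM (SD, n = 3) in naive OL, while total RNA held 57.0 and 71.8 CPM on average (difference 3.59 ± 0.20, q = 4.65e-10). Slc9a3r2, a PDZ scaffold, was at 161, 120 and 135 CPM in OL and at 14.9 ± 1.10 CPM in naive OL (difference 3.16 ± 0.20, q = 5.18e-09), and Nlgn2, neuroligin 2, was at 180, 204 and 147 CPM against 51.3 ± 7.81 CPM (2.50 ± 0.19, q = 3.50e-08). Naive and dpi 2 differences between OL and total RNA of the same pool did not overlap in these genes, by the rule that chose them. Cacng5 had a difference of 4.63 ± 0.42, Plvap, a protein of fenestrated endothelium, 4.37 ± 0.41, Mmp17, a membrane metalloprotease, 3.82 ± 0.37, Dlk1 2.84 ± 0.27, Snx10 2.18 ± 0.22, Prkar1b, a regulatory subunit of protein kinase A, 1.68 ± 0.15, and Lypla2, a depalmitoylating enzyme, 1.35 ± 0.12. Dlk1 (-1.58), Prkar1b (-2.51) and Snx10 (-0.80) were nevertheless OL depleted on dpi 2.

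The genes named for a lower OL enrichment than in naive cord began with Grn, progranulin, a protein of lysosomes and secretion. Grn was at 140, 136 and 160 CPM in OL and at 424, 479 and 398 CPM in total RNA on dpi 2, where naive means were 114 and 46.4 CPM (difference -2.88 ± 0.19, q = 5.18e-09). Lgmn, a lysosomal protease, had a difference of -2.17 ± 0.14, Ctsz, cathepsin Z, -2.29 ± 0.17, Arsb, a sulfatase, -1.82 ± 0.15, and Man2b1, a mannosidase, -1.97 ± 0.17. The OL level was not the lower value for each of these: Ctsz was at 183, 187 and 211 CPM in OL against a naive mean of 119 ± 3.58 CPM (SD, n = 3), and its total RNA level was 354 CPM on average against 44.4 CPM. The others were Tgfbi, a matrix protein (-3.84 ± 0.30), Rab7b (-3.90 ± 0.35), Rrm1, ribonucleotide reductase (-1.64 ± 0.15), and Tln1, talin (-1.72 ± 0.17). The 19 markers of infiltrating myeloid cells summed to 3875 to 5280 CPM in these total libraries and to 155 to 206 CPM in naive total RNA, and to 565 to 686 CPM in OL against 25.9 to 34.3 CPM in naive OL, with Ly6c2 and Il1b at 0 in every dpi 2 OL library. Their part in these differences was not tested.

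**Figure D4:**
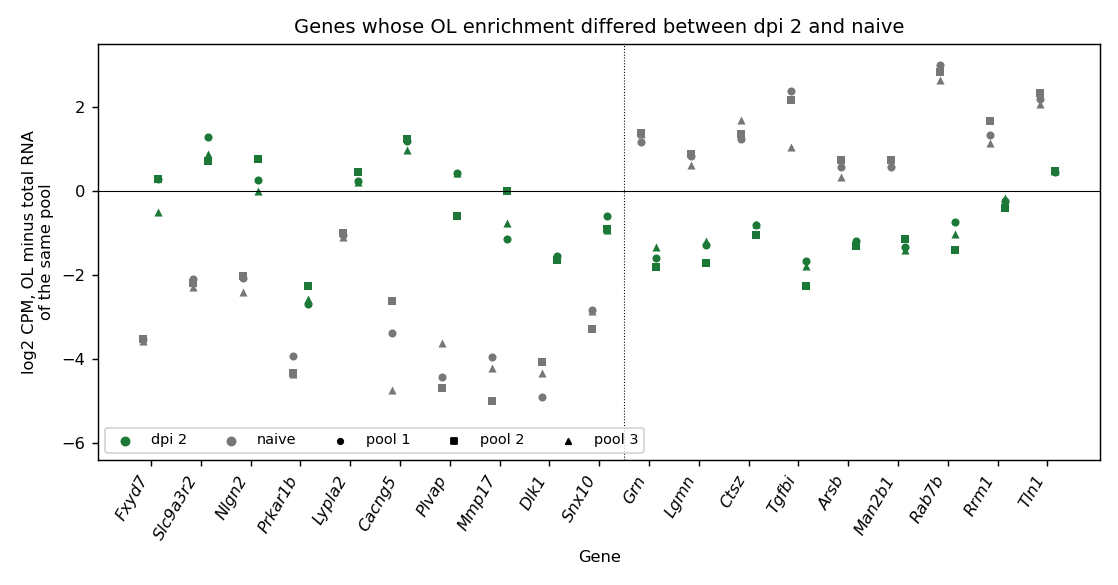
Log2 CPM in OL minus total RNA of the same pool (vertical axis) for the 10 genes named with higher and the 9 with lower OL enrichment on dpi 2 than in naive cord; green is dpi 2, gray is naive, and symbols number the 3 pools within each group. Fxyd7 lies near -3.5 in naive pools and around 0 on dpi 2, and Grn lies above 0 in naive pools and below it on dpi 2.

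Over all 17167 genes 3.35% were higher than naive by the limit and 2.92% were lower. Of 73 genes of the respiratory chain 22 were higher and none was lower. The median difference of this list was 0.89, close to the limit of 1, so that the count depends on scaling. Over all genes the median difference was 0.06, and -0.11 with a dpi 2 total library as TMM reference. Of its members, Atp5h and Ndufb2 lost this call in 8 and 6 of 26 alternatives. Of the candidate list 22 of 35 were higher, but the study chose that list partly by this same difference in these libraries. That count was thus partly set in advance and is not evidence. Ribosomal protein genes had 4 of 76 higher and none lower. The ATF4 list had 6 higher, among them Asns (2.52 ± 0.32) and Pycr1 (3.40 ± 0.84, not called without pool 1 at 3.01). The difference was 3.16 ± 0.33 for Fos, 2.02 ± 0.42 for Egr1 and 2.17 ± 0.31 for Junb, another AP-1 member, but -1.37 ± 0.25 for Jun. It was 4.93 ± 0.61 for Klk8, 1.89 ± 0.26 for Serpina3n and 2.93 ± 0.63 for Steap3. Enrichment was lower than naive in 10 of 22 cell cycle genes (Mcm2 -2.58 ± 0.28), while the summed level of the 22 was higher than naive in OL and in total RNA. Enrichment was also lower in 4 of 18 genes of glycolysis and lactate transport (Slc16a3 -3.56 ± 0.60 and Slc16a1 -1.16 ± 0.20, the last not called without pool 2 at -0.98). The OL minus total median of that list was 0.48 in naive pool 3, the naive pool with the highest astrocyte sum in OL, and -0.52 and -0.54 in naive pools 1 and 2, and its part in the 4 differences was not tested. Without the OL library of naive pool 3, Slc16a3 and Slc16a1 were at -3.24 and -1.44. Tcf7l2 (-1.58 ± 0.36), Cers2 (-1.13 ± 0.17), Hmox1 (-2.26 ± 0.35) and Ftl1 (-1.56 ± 0.21) also had lower enrichment than in naive cord, as did Olig2 (-1.10 ± 0.24), which was not called without the total library of pool 3 (-0.91).

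Some genes differed from the later days as well. For 2 libraries of dpi 42 the labels disagree on whether they hold OL or total RNA. They were placed by the name of their column, and the values for dpi 42 rest on that. OL enrichment of Parvb was 1.02 at the early time, against -0.46 on dpi 10 and -0.44 for dpi 42, and dpi 2 exceeded both (differences of 1.48 ± 0.25, q = 0.00304, and 1.46 ± 0.25, q = 0.00358). Prkar1b exceeded dpi 10 by 1.26 ± 0.15 (q = 0.000317) and dpi 42 by 1.01 ± 0.15 (q = 0.00122), and Dlk1 by 1.97 ± 0.27 (q = 0.000519) and 2.22 ± 0.27 (q = 0.000267). Mcm2 was lower than on either later day, by -1.97 ± 0.28 (q = 0.000606) and -1.77 ± 0.28 (q = 0.00189). Klk8 did not pass against dpi 10 (-0.21 ± 0.47, q = 0.973) or dpi 42 (0.14 ± 0.48, q = 1), and Serpina3n did not either (-0.26 ± 0.26, q = 0.78, and 0.17 ± 0.26, q = 0.909).

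**Figure D5:**
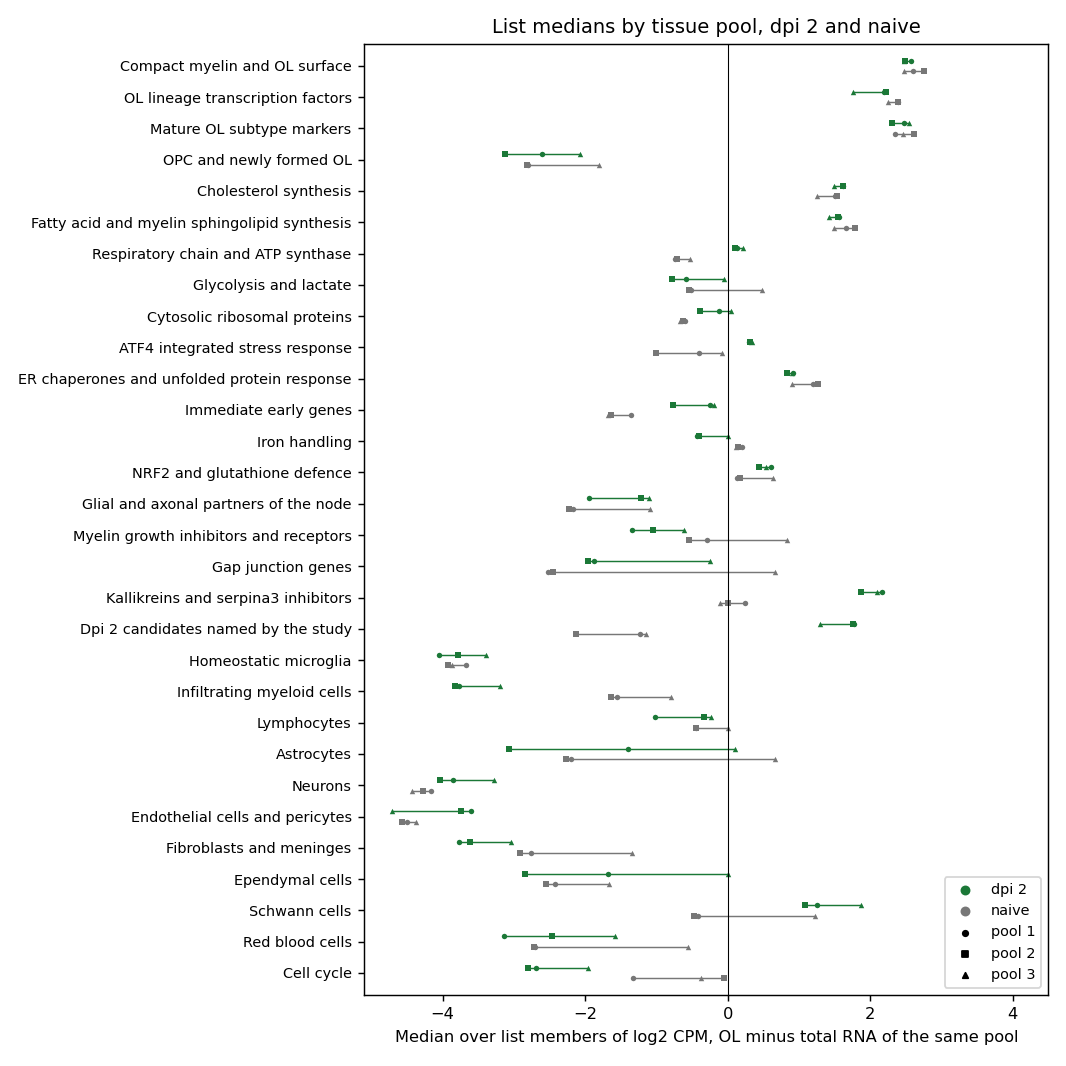
Median over the members of each list of log2 CPM in OL minus total RNA of the same pool (horizontal axis), for the 3 pools of dpi 2 (green) and the 3 naive pools (gray, numbered separately). Myelin medians lie at 2.47 to 2.58 on dpi 2, and the 3 dpi 2 pools of the respiratory chain lie above the 3 naive pools. Among dpi 2 pools the astrocyte, gap junction and ependymal lists spread most, with pool 3 highest.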

How the data were processed

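OL and total RNA of 24 libraries had been sequenced by the authors, who checked reads with FastQC 0.10.1, aligned them to the mouse genome (mm10, GRCm38.p6) with STAR and counted them per gene with HTSeq 0.10.0. The deposited values were raw read counts for 21965 genes, 21939 of them with a symbol.

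Counts were fitted in edgeR 4.0.16 (R 4.3.3, limma 3.58.1) by the quasi-likelihood F test with 1 mean for each of 8 groups, TMM scaling and Benjamini-Hochberg adjustment over 17167 genes whose counts summed to 10 or more. CPM are TMM scaled. In simulated counts of 17031 genes for the dpi 2 comparison, 50 genes each were changed by -2, -1, 1 and 2 (log2). Recovered were 92% of genes changed by 2 or -2, 70% of those changed by -1 and 58% of those changed by 1, with 4.29% false calls. These changes were few and equal in both directions, whereas 3525 genes were OL enriched and 4670 depleted in the data. The simulation therefore cannot give the share of false calls under so many and uneven differences, which was not tested. Alternatives were DESeq2 1.42.0, other scalings, filters and sets of samples, an offset for length and GC content, each library or pool left out, and a block for the tissue pool. Every fit with the block left out the dpi 42 libraries, whose pools cannot be paired from the labels. Pairing comes from the methods and names, by which OL and total libraries of a number share 1 tissue pool; deviations from group means correlated at 0.0879, 0.0998 and 0.108 within pools and at -0.0781 to -0.0184 between pools. For 2 libraries of dpi 42 the title and the column name disagree on the kind of RNA, and the column name was followed; a fit without dpi 42 was an alternative. P-values of the main fit measure the spread between libraries within the 8 groups, each library from a pool of 2 mice. That fit had no term for the pool, so that OL and total libraries of 1 pool were treated as independent.

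The lists and named genes were chosen with earlier results of these data known. Of 574 listed names 569 matched and 568 were tested. Named were the 15 highest and 15 lowest genes among those with q under 0.05, groups that do not overlap and a mean of at least 5 CPM, list members with the extreme values, against their list or with a described role, and the 10 genes each way with the smallest p of the difference from naive whose pools do not overlap. Some genes that the rule names are not reported here. Lengths and coordinates are from GENCODE M21 and promoters from RefSeq (GRCm38.p6).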

Additional observations from a re-analysis of the deposited data

Results flagged for a closer look

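The following named genes differed between dpi 2 and naive cord in OL enrichment by the interaction of fraction and group (edgeR's quasi-likelihood test over 17167 genes). Each value is the log2 OL enrichment on dpi 2 minus that in naive cord. Higher on dpi 2 were the secreted proteins Serpina3c (7.58), Klk8 (4.93), Serpina3n (1.89) and Fgfbp3 (1.47), and Serpina3c was near the floor in naive libraries. Membrane and adhesion genes that were higher included Cacng5 (4.63), Plvap (4.37), Mmp17 (3.82), Fxyd7 (3.59), Slc9a3r2 (3.16), Steap3 (2.93), Dlk1 (2.84), Nlgn2 (2.50) and Parvb (2.26). Transcription factors that were higher were Fos (3.16), Junb (2.17), Egr1 (2.02) and Atf4 (1.06).

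Among enzymes and signaling genes, Pycr1 (3.40), Asns (2.52), Ptpn5 (2.30), Snx10 (2.18), Prkar1b (1.68), Lypla2 (1.35), Pfkfb4 (1.17), Ndufb2 (1.18) and Atp5h (1.07) were higher, as was the tubulin Tubb3 (1.47). The calls of Atf4, Atp5h, Ndufb2 and Pfkfb4 lay close to the limit of 1 and were lost in 9, 8, 6 and 6 of 26 alternatives, among them the dpi 2 total library as TMM reference and several single OL libraries left out. Their lowest values were 0.74, 0.80, 0.83 and 0.89.

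Lower on dpi 2 were the lysosomal and matrix genes Rab7b (-3.90), Tgfbi (-3.84), Grn (-2.88), Ctsz (-2.29), Lgmn (-2.17), Man2b1 (-1.97) and Arsb (-1.82). Genes of replication and the cytoskeleton were Mcm2 (-2.58), Tln1 (-1.72), Rrm1 (-1.64) and Pcna (-1.14). Metabolic genes were Slc16a3 (-3.56), Hmox1 (-2.26), Hk2 (-1.87), Ftl1 (-1.56), Slc16a1 (-1.16), Cers2 (-1.13) and Elovl1 (-1.02), of which Elovl1 was not called without pool 2 (-0.93). Transcription factors were Tcf7l2 (-1.58), Jun (-1.37) and Olig2 (-1.10).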

How the results depend on the processing

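The median of all genes shifted most with scaling. With library sizes alone 1390 genes were OL enriched, 7437 depleted and 105 highly enriched, and with an offset for length and GC content 6832 were enriched and 1037 highly enriched. Of the 30 list medians 12 were above 0, against 9 and 16 under these scalings. Leaving out single dpi 2 libraries or pools gave 3061 to 3485 enriched, 3803 to 5096 depleted, 297 to 421 highly enriched and 2326 to 3308 highly depleted genes. For the difference from naive cord these leave-outs, with single naive libraries added, gave 266 to 553 higher and 396 to 923 lower genes, and the dpi 2 total library as TMM reference gave 343 higher genes. The share of higher genes was 29.8%, 33.4% and 25.5% without the OL libraries of dpi 2 pools 1, 2 and 3, 30.8%, 27.7% and 38.4% without those of naive pools 1, 2 and 3, and 25.2% without dpi 2 pool 3, where the median difference was between -0.20 and -0.07 instead of 0.06; the cause was not tested. The length and GC offset turned the sign of Dnajb9 (0.65), Junb (0.54), Rpl3 (0.51) and Ndufb2 (0.10), and library sizes alone that of Fxyd7 (-0.53).

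With the tissue pool as a block 3470 genes were OL enriched, 4499 depleted, 354 highly enriched and 2681 highly depleted, and 558 and 470 were higher and lower than naive. In the dpi 2 libraries alone the block gave 3175, 3704, 338 and 2142, and in the naive and dpi 2 libraries alone 450 and 368. Among genes named with counts in each group, the block over all libraries changed the call of Aqp4 (-2.10) and Fads2 (-1.39). Depletion was not detectable at this depth for 9 of 10 lymphocyte markers tested.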

Other observations

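Other cell types had few counts or split. The 10 lymphocyte markers tested summed to 1.602 to 2.602 CPM in total RNA of dpi 2 and to 0.306 to 0.527 CPM in OL, with 1, Cd3e, OL depleted at 0 CPM in each OL library, a call lost without any 1 pool. Hemoglobin and other red blood cell genes summed to 62.9 to 126 CPM in total RNA and to 6.35 to 24.9 CPM in OL, against 1.49 to 10.7 CPM in naive total RNA, and 4 of 5 were OL depleted, none without pool 1 or pool 2 and 1 without pool 3. Of 9 ependymal genes 3 were depleted and 1 was enriched: Foxj1, the regulator of motile cilia, at 35.6, 37.7 and 47.3 CPM in OL against 25.7, 18.1 and 26.5 CPM (0.78 ± 0.16, q = 0.000352). Schwann cell genes summed to 1050 to 1645 CPM in OL and 340 to 727 CPM in total RNA on dpi 2, and to 687 to 1340 and 177 to 425 CPM in naive cord.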
